A study of Mus musculus with 136 samples.

Results

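The kidney medulla of mice injected with 131I at 15:00 was compared with that of mice injected at 9:00, probe by probe, over all probes above background. The 15:00 and the 9:00 group had 4 replicates each, so that 8 of the 130 replicates of the series entered the comparison, on 9 of its 136 arrays. All mice were female BALB/c nude mice, an athymic strain, 9 months old. Both groups were injected intravenously with 90 kBq 131I, an iodine isotope that emits beta particles and gamma rays and is taken up mainly by the thyroid, and the tissue was excised 24 h later. The hour of injection and the hour of excision were therefore the same, and each group had a cage of its own, so that time of day of the irradiation, time of day of sampling and cage cannot be told apart in this comparison. Saline groups were given no 131I at the same hours (3 replicates each in the medulla), and another 131I group was injected at 12:00 (4 replicates). By the study's methods the replicates are tissue samples of different mice, while the labels give only a number. The mice were kept in the dark from the late afternoon until shortly before 9:00.

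The inner part of the kidney holds the loops of Henle, the collecting ducts and their vessels, and concentrates the urine. Like other tissues it has its own molecular clock, a feedback loop in which BMAL1 (the product of *Arntl*) and CLOCK activate genes through E-box sequences. Their targets include the *Per*, *Cry* and *Ciart* repressors, which shut the activators off, the REV-ERB receptors (*Nr1d1* and *Nr1d2*), which repress *Arntl*, and the output factors *Dbp* and *Tef*, which bind D-box sequences. The clock is known to time salt and water handling in the kidney.

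The medulla arrays had 42.6% to 46.9% of the probes above background (detection p under 0.01) over the 9 arrays compared, and 13247 probes, which were above background on at least 3 of 23 medulla arrays, were tested. Markers expected of the tissue were present: 11 of 11 collecting duct principal cell genes and 11 of 11 thick ascending limb genes on the array were above background. So were 18 of 19 proximal tubule genes and, of cell types of the cortex, 4 of 4 glomerulus and 5 of 6 distal convoluted tubule genes. How much cortex the samples held was not tested. None of 4 adrenal cortex genes was above background. Replicate 3 of the 9:00 group was measured on a pair of arrays whose mean was used. The repeat array correlated with the first at r = 0.987 over the probes, and with the other 9:00 replicates at 0.988 to 0.992, so that it did not match its own replicate best. The values of both arrays are given beside some results.

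With 131I, 21 of the 13247 probes (0.159%) differed between 15:00 and 9:00 at an adjusted p value (limma, Benjamini-Hochberg) under 0.01 with at least a 1.5-fold difference. Of these 10 (0.0755%) were higher and 11 (0.0830%) lower at 15:00, in 14 named genes and 3 probes without a gene name. With the arrays scaled to their medians in place of quantile normalization the split was 9 higher and 1 lower, and without an intensity trend in the spread estimate it was 7 higher and 3 lower. At an adjusted p under 0.05 without a fold minimum 47 probes passed (0.355%), 25 higher (0.189%) and 22 lower (0.166%). At an unadjusted p under 0.05 it was 1549 probes (11.7%). The replicates of the groups did not overlap for 946 probes (7.14%), 443 higher (3.34%) and 503 lower (3.80%) at 15:00, among them all 21 that passed the main rule. The median difference over all probes tested was 0.0107 on the log2 scale and its median standard error 0.163. With each replicate left out in turn, 8 to 17 probes passed. The count was 10, 12 and 10 without 9:00 replicate 2, 3 and 4, and 13, 8 and 12 without 15:00 replicate 1, 3 and 4. The lower transcripts depended most on single replicates, with 1 to 8 left. With the repeat array left out 20 probes passed, and with the repeat array in place of the first 17.

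The genes that rose were *Per2*, *Ciart*, *Dbp*, *Tnnc1*, *Coq10b* and *Tef*, and those that fell were *Arntl*, *Gldc*, *Ndrg1*, *Mrnip*, *Bid*, *Ahcyl2*, *Htra1* and *Wsb1*. *Per2*, *Ciart*, *Arntl*, *Dbp* and *Tef* belong to the core loop or its outputs. The bases around the start of some of these genes (RefSeq, GRCm38.p6, from 250 bases before to 50 after the start, on the gene's strand) are given here because they hold sequences of the kind that clock factors bind. Capitals mark an E-box (CACGTG), a D-box (TTATGTAA or TTACGTAA) or a ROR and REV-ERB element, each searched on both strands; no marked sequences overlap.
Ciart: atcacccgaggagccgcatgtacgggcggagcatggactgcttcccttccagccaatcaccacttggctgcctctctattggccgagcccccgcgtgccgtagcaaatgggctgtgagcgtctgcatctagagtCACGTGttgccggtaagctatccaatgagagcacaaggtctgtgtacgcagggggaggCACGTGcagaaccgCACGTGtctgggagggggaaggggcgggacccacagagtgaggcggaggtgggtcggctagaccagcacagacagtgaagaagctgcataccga
Coq10b: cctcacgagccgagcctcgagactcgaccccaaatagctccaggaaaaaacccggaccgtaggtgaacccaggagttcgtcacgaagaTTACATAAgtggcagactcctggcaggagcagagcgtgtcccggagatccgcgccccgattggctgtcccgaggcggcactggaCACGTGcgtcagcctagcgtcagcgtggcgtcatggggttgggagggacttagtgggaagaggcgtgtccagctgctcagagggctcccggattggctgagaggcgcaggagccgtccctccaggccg
Tef: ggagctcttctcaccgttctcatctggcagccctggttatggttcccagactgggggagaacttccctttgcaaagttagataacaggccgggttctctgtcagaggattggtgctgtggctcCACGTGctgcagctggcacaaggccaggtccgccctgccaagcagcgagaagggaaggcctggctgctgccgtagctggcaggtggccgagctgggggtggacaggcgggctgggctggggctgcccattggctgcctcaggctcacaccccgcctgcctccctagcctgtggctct
Wsb1: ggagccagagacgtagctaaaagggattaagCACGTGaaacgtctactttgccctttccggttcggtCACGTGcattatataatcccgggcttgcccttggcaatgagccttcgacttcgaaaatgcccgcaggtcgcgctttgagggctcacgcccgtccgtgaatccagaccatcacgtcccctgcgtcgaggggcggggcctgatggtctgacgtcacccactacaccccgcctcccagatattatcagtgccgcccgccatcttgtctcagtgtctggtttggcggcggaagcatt
Arntl: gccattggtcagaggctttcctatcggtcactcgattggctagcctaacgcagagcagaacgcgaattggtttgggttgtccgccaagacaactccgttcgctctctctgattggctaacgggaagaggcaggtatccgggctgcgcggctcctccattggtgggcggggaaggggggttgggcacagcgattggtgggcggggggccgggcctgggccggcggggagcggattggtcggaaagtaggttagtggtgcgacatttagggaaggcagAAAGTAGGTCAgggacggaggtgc
The windows lie at chr3:95882179-95882478 (minus strand) for *Ciart*, chr1:55052520-55052819 (plus) for *Coq10b*, chr15:81802423-81802722 (plus, the first of 2 starts) for *Tef*, chr11:79254646-79254945 (minus, the first of 2) for *Wsb1* and chr7:113207261-113207560 (plus, the second of 2) for *Arntl*. In *Ciart* 3 E-boxes began at positions -116, -58 and -44 from the start. *Coq10b* had an E-box at -78 and a D-box at -162, *Tef* an E-box at -127 and another, at -138, in its second window. *Wsb1*, which fell, had E-boxes at -219 and -183, and *Arntl* had a ROR and REV-ERB element at 27 after the start. Of the 6 named genes that rose 5 had a window, and 3 of these held an E-box and 1 a D-box; *Dbp* and *Tnnc1* had none of the motifs. Of the 8 that fell 7 had a window, 1 with an E-box and 1 with a ROR and REV-ERB element. An E-box was found in 7.15% of all 32851 windows, a D-box in 1.06% and a ROR and REV-ERB element in 0.384%. These shares are per window, whereas the counts of genes take a match in any window of the gene, so that the units differ. A match describes the letters in this window and is no evidence of binding.

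Among the repressors of the clock, *Per2* was the transcript with the smallest p. Its log2 intensity was 8.32, 7.73, 7.01 and 7.80 in 9:00 replicates 1 to 4 and 9.47, 9.80, 9.50 and 9.76 in the 15:00 replicates. Every 15:00 sample thus lay above every 9:00 sample, and the 9:00 samples were spread more widely, with replicate 3 lowest. The difference was 1.91 ± 0.20 (log2, standard error), or 3.77-fold (adjusted p = 5.31e-05), and a second *Per2* probe gave 1.90. On the separate arrays of replicate 3 the first probe read 6.71 and, in the repeat, 7.32.

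*Ciart*, a repressor that acts on the BMAL1 and CLOCK pair, read 5.25, 4.56, 4.56 and 4.77 at 9:00 and 6.43, 6.79, 6.47 and 6.57 at 15:00. At 9:00 it was not well above background on any array (0 of 5) and at 15:00 it was on 4 of 4, so that its change is a bound of at least 2.25-fold on the background-corrected scale (adjusted p = 5.55e-05). The group means were 4.78 and 6.56, and the bound sets the brighter mean against that of the lowest signal above background on each 9:00 array. In the deposited normalized values *Ciart* differed by 0.57 on the log2 scale, under the fold minimum of the main rule. A second *Ciart* probe, above background on 2 of 5 arrays at 9:00, differed by 1.76 (adjusted p = 0.00114).

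The other repressors had smaller differences. *Per1*, the paralogue of *Per2*, read 7.63, 6.50, 7.15 and 7.16 at 9:00 and 7.86, 8.44, 7.96 and 8.80 at 15:00. The groups lay apart by a small gap, and the difference of 1.15 ± 0.24 passed only the looser rule (adjusted p = 0.0383), with 0.75 for *Per1* in the deposited normalized values. Its second probe gave 0.69 (adjusted p = 0.228). *Nr1d2* (REV-ERB beta) was 9.45 to 10.07 at 9:00 and 10.34 to 10.66 at 15:00, a difference of 0.77 ± 0.18 that passed neither rule (adjusted p = 0.0591). *Bhlhe40*, which competes for E-boxes, differed by 0.56 ± 0.13 (adjusted p = 0.0668), also without overlap. Neither *Per3* (0.56, adjusted p = 0.394, above background on 1 array in each group) nor *Cry2* (0.31, adjusted p = 0.430) passed. *Nr1d1* (REV-ERB alpha) was the one repressor with a negative difference, -0.26 ± 0.20 (adjusted p = 0.646), and its groups overlapped. *Cry1* and *Bhlhe41* were not above background. Of 8 repressors measured 2 rose by the main rule and 3 by the looser one, 7 differences were positive, and their median was 0.67. Over all probes tested 0.0755% were higher by the main rule and 0.189% by the looser one, and the median was 0.0107.

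Among the activators *Arntl* fell. It read 7.24, 7.54, 8.19 and 7.22 at 9:00 and 5.07, 5.38, 5.58 and 5.63 at 15:00. The groups lay well apart, and 9:00 replicate 3, lowest for *Per2*, was highest here. The difference was -2.13 ± 0.25, or 4.38-fold lower (adjusted p = 0.000146), with the probe above background on 2 of 4 arrays at 15:00. With the deposited normalized values the difference of *Arntl* was -0.95, which still passed the main rule. *Clock*, its partner, was 9.44 to 9.71 at 9:00 and 8.89 to 9.34 at 15:00, without overlap, but its difference of -0.46 ± 0.13 did not pass (adjusted p = 0.161). *Rora*, an activator of *Arntl*, differed by 0.06 ± 0.14 (adjusted p = 0.909). *Npas2* and *Rorb* were not above background. Of 3 activators measured 1 fell, beside 0.0830% of all probes tested.

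The output factors followed the repressors in sign, with an exception. *Dbp* read 11.15, 11.27, 9.99 and 10.79 at 9:00 and 12.42, 12.52, 12.21 and 12.28 at 15:00, a difference of 1.56 ± 0.26 or 2.94-fold (adjusted p = 0.00550). The 15:00 samples were close together and 9:00 replicate 3 was again lowest, at 10.06 and 9.92 on its separate arrays. *Tef* read 9.96, 9.91, 9.60 and 9.36 at 9:00 and 10.38, 10.72, 10.63 and 10.55 at 15:00. It rose by 0.86 ± 0.15 (adjusted p = 0.00852), whereas its other probe gave 0.09, so that the probes of *Tef* disagreed. *Usp2*, a deubiquitinase under clock control, passed the looser rule (0.80 ± 0.17, adjusted p = 0.0330). *Wee1*, a cell cycle kinase known as a clock target, was not well above background on any 9:00 array and gave a bound of at least 1.04-fold (adjusted p = 0.130). *Nfil3*, a repressor at D-boxes, differed by -0.01 ± 0.15 (adjusted p = 0.983). *Hlf* was not above background. Of 5 output factors measured 2 rose by the main rule and 3 by the looser one, beside 0.0755% and 0.189% of all probes tested. *Dbp* and *Tef* each lost the main rule's threshold in most fits with a replicate left out, passing in 2 and 1 of 8, with differences of 1.29 to 1.72 and 0.75 to 0.95, while *Per2*, *Ciart* and *Arntl* passed in 8 of 8.

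**Figure D1:**
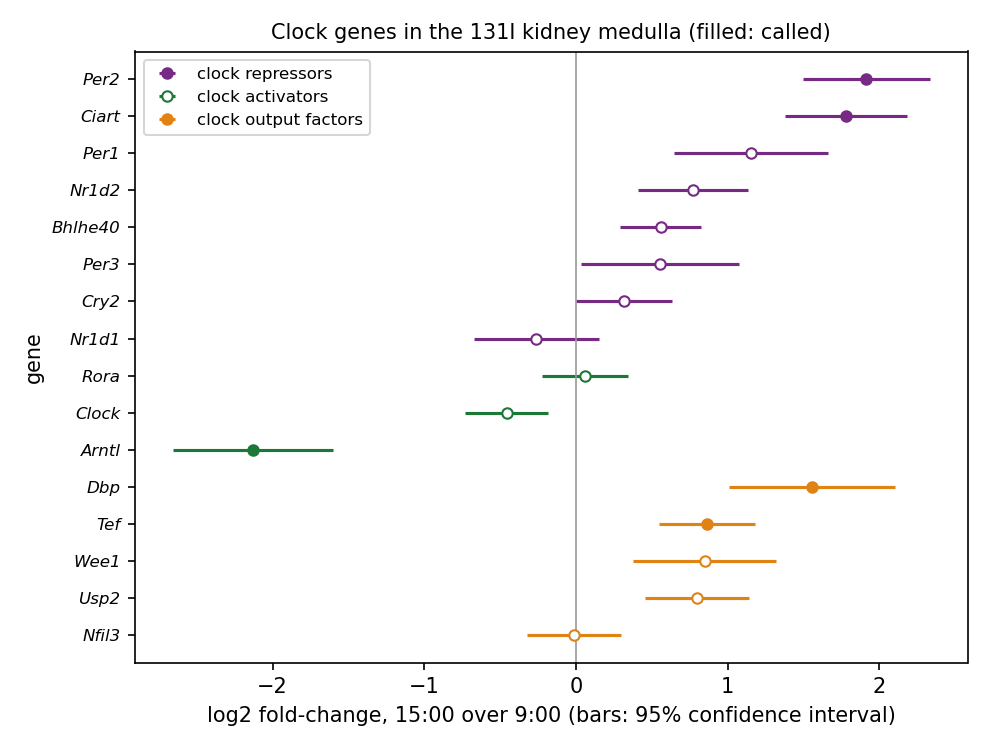
Log2 fold-change of the 16 measured clock genes in the 131I kidney medulla, 15:00 over 9:00 (x axis), with 95% confidence intervals as bars, grouped by role; filled points passed the main rule. *Per2* (1.91) and *Ciart* (1.78) lie farthest to the right and *Arntl* (-2.13) farthest to the left, with *Nfil3* near 0.

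Apart from the clock genes, *Coq10b* and *Tnnc1* rose. *Coq10b*, a coenzyme Q binding protein of mitochondria, read 7.51, 6.92, 7.0 and 7.39 at 9:00 and 8.39, 8.64, 8.11 and 8.35 at 15:00. All 15:00 samples lay above all 9:00 samples, by 1.17 ± 0.17 or 2.25-fold (adjusted p = 0.00114), and a second probe gave 1.21. In the deposited normalized values *Coq10b* differed by 0.78 and still passed. *Tnnc1*, the troponin C of slow and cardiac muscle, read 4.93, 5.04, 5.57 and 5.16 at 9:00, where it was above background on 2 of 5 arrays, and 6.62, 6.56, 6.55 and 6.45 at 15:00. Its 15:00 samples were within a narrow range, and the difference was 1.37 ± 0.20 (adjusted p = 0.00114). With the deposited normalized values it was 0.45, and neither there nor without background correction did *Tnnc1* reach the fold minimum of the main rule. Both genes passed with each replicate left out in turn. The unnamed probe ILMN_1232447 rose by 0.72 ± 0.11 (adjusted p = 0.00278).

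**Figure D2:**
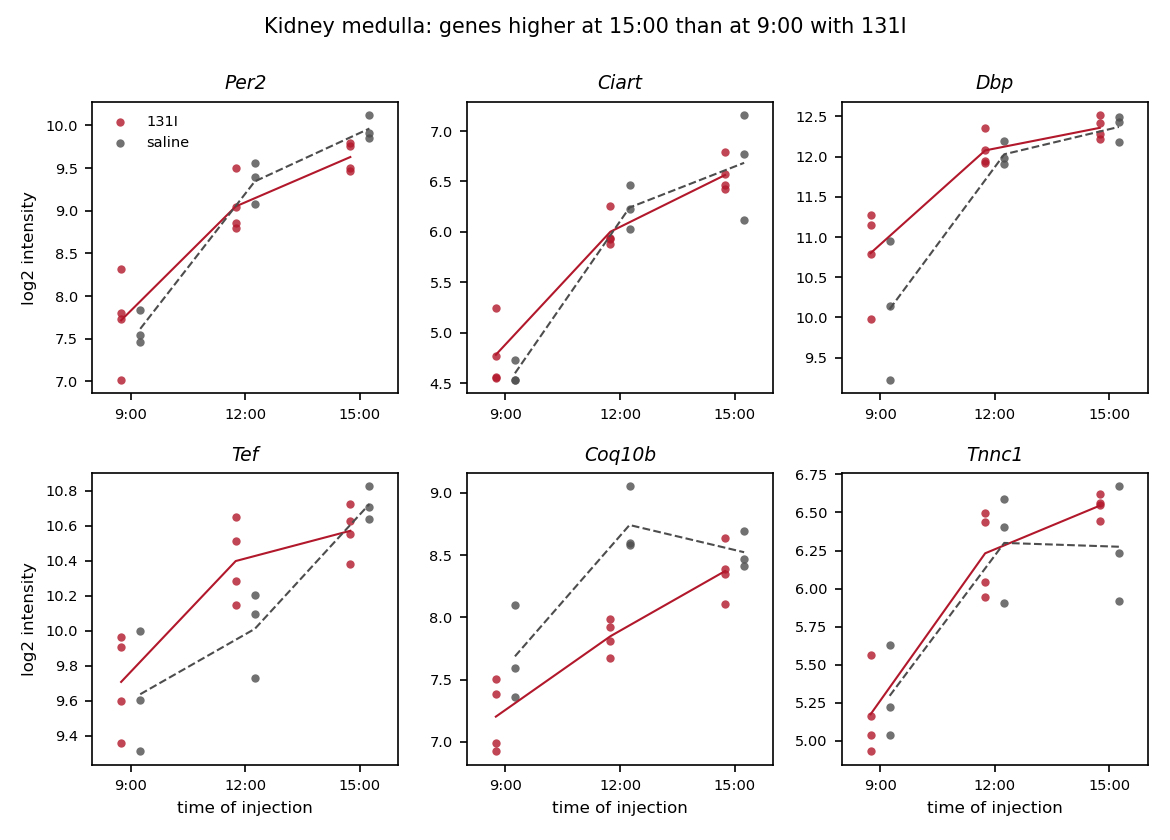
Log2 intensity (y axis) of the 6 named genes that were higher at 15:00, for each kidney medulla sample by time of injection (x axis); red points are 131I and grey points saline samples, and lines join group means. In each panel the 4 131I samples of 15:00 lie above the 4 of 9:00, and the mean of the 12:00 group lies between them.

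Outside the clock, *Gldc*, the glycine decarboxylase of the mitochondrial glycine cleavage system, read 12.49, 12.27, 11.87 and 12.05 at 9:00 and 10.76, 11.14, 10.56 and 11.11 at 15:00. The lowest 9:00 sample exceeded the highest 15:00 sample, and the difference was -1.28 ± 0.21 or 2.43-fold lower (adjusted p = 0.00535), with -1.49 from a second probe. *Ndrg1*, which is induced by hypoxia, read 13.32, 13.50, 13.37 and 13.17 at 9:00 and 12.26, 11.94, 12.31 and 12.27 at 15:00. It fell by 1.15 on the log2 scale, 2.21-fold (adjusted p = 0.00535), and its other probe gave -0.88, which passed the looser rule.

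*Mrnip*, a partner of the MRN complex of DNA repair, read 8.58, 8.91, 8.38 and 8.35 at 9:00 and 7.78, 7.52, 7.43 and 7.39 at 15:00, 2.04-fold lower (adjusted p = 0.00278). *Bid*, a pro-apoptotic BH3-only protein, read 8.41, 8.58, 8.49 and 8.69 at 9:00 and 7.30, 7.66, 7.50 and 7.97 at 15:00, 1.92-fold lower (adjusted p = 0.00852). Both had groups without overlap. *Ahcyl2*, a relative of S-adenosylhomocysteine hydrolase that regulates ion transporters, was 9.31 to 9.52 at 9:00 and 8.26 to 9.04 at 15:00 (-0.87 ± 0.16, adjusted p = 0.00996). *Htra1*, a secreted serine protease (-0.76 ± 0.12, adjusted p = 0.00278), and *Wsb1*, a ubiquitin ligase subunit (-0.74 ± 0.12, adjusted p = 0.00389), were lower by 1.69-fold and 1.68-fold. The unnamed probes ILMN_1237518 and ILMN_2622671 fell by 1.41 and 0.88, and in the deposited normalized values ILMN_1237518 differed by -0.57 and did not pass. These transcripts rest on few samples: with a replicate left out in turn, *Mrnip* and *Htra1* passed the main rule in 5 of 8 fits, *Gldc* in 2, *Bid*, *Ahcyl2* and *Wsb1* in 1 and *Ndrg1* in 0 of 8, with the direction kept in each fit.

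**Figure D3:**
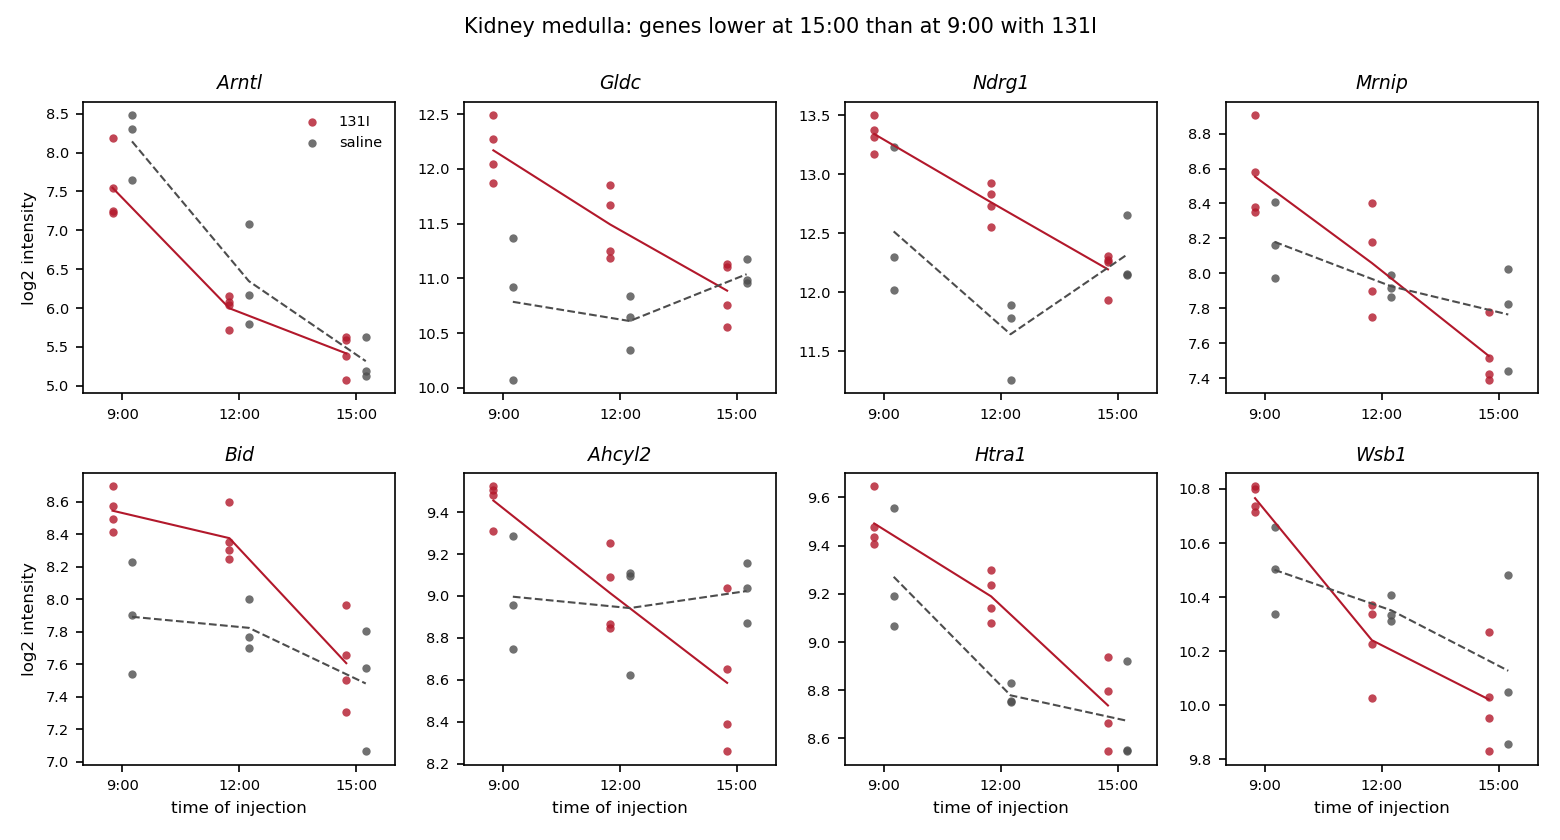
Log2 intensity (y axis) of the 8 named genes that were lower at 15:00, for each kidney medulla sample by time of injection (x axis); red points are 131I and grey points saline samples, and lines join group means. For *Arntl* both lines fall, whereas for *Gldc*, *Ndrg1* and *Ahcyl2* the saline means of 9:00 and 15:00 differ by 0.25, -0.19 and 0.03 on the log2 scale.

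The 131I group of 12:00 had a mean between those of the other hours for each of the 17 genes or unnamed probes called. Group means in the order of the hours were 7.72, 9.05 and 9.63 for *Per2*, 10.80, 12.08 and 12.36 for *Dbp* and 7.55, 6.00 and 5.42 for *Arntl*, so that the greater part of the change lay between 9:00 and 12:00. For *Gldc* they were 12.17, 11.49 and 10.89, and for *Bid* 8.54, 8.38 and 7.61. No probe passed the main rule in 12:00 against 9:00 (limma, smallest adjusted p = 0.0153, with 7 probes, 0.0528%, at an adjusted p under 0.05 and 1124, 8.48%, at an unadjusted p under 0.05) or in 15:00 against 12:00 (smallest adjusted p = 0.0913, with 0 at an adjusted p under 0.05 and 1213, 9.16%, at an unadjusted p under 0.05). These comparisons share samples with the main one.

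The saline groups showed what the same hours gave without 131I. There 21 probes passed the main rule as well (0.159%), 18 higher (0.136%) and 3 lower (0.0226%). Of the 21 probes called with 131I, 7 were also called with saline (33.3% of each list). These were both probes of *Per2* and of *Ciart*, *Arntl*, *Dbp* and *Tef*. With saline *Per2* differed by 2.35, *Dbp* by 2.26, *Tef* by 1.09 and *Arntl* by -2.83, each farther from 0 than with 131I. *Per1* (1.94) and *Usp2* (1.39) passed the main rule with saline and only the looser rule with 131I. None of these differences between 131I and saline passed its own test (adjusted p of the interaction 0.669 for *Per2*, 0.575 for *Arntl*, 0.582 for *Dbp*, 0.502 for *Per1* and 0.478 for *Usp2*). The second *Per1* probe had a wider gap, with 2.33 for saline, where it passed the main rule, and 0.69 for 131I. Its interaction of -1.64, beside -0.79 for the first probe, did not pass either (adjusted p = 0.204).

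Apart from *Arntl*, the named genes that fell with 131I were not called with saline. *Gldc* gave 0.25, *Ahcyl2* 0.03, *Ndrg1* -0.19, *Mrnip* -0.42 and *Bid* -0.41, while *Htra1* gave -0.60 and *Wsb1* -0.37. *Gldc* in saline samples read 11.37, 10.07 and 10.92 at 9:00 and 10.96, 10.98 and 11.18 at 15:00, and *Ndrg1* 13.23, 12.02 and 12.30 at 9:00. The saline levels of both at 9:00 were thus spread widely and lay mostly under the 131I samples of that hour. The saline samples of 9:00 also stood apart from the 131I samples of 9:00 in several cell type markers. Their mean log2 intensity was 9.12 to 9.93 against 8.26 to 8.90 for the thin limb and 7.17 to 8.30 against 5.90 to 7.08 for papilla and urothelium. It was 9.19 to 9.43 against 8.57 to 8.91 for collecting duct principal cells and 8.29 to 8.77 against 7.62 to 7.98 for endothelium. The groups did not overlap in these 4 lists, nor for the thick ascending limb (10.31 to 10.42 against 9.99 to 10.23). For intercalated cells they did not overlap either, but saline was the lower (7.19 to 7.72 against 7.75 to 8.08). At 12:00 papilla and urothelium also lay apart, with 7.63 to 8.05 against 5.68 to 6.31. Between 15:00 and 9:00 the saline medians of the first 4 lists were -0.66, -0.61, -0.36 and -0.41. They were -0.21 for the thick ascending limb and 0.17 for intercalated cells. The part of these levels in the differences between 131I and saline was not tested. The interaction did not pass for *Gldc* (-1.53, adjusted p = 0.204), *Ahcyl2* (-0.90, adjusted p = 0.261) or *Ndrg1* (-0.95, adjusted p = 0.356), so that a difference in these falls between 131I and saline was not shown. Over all probes the interaction was called for 0 of 13247 (0%; limma, smallest adjusted p = 0.0666), with 1302 at an unadjusted p under 0.05 (9.83%). That smallest value was for *Errfi1*, a feedback inhibitor of EGF receptor signalling, which differed by -0.36 with 131I and 0.80 with saline. *Errfi1* was named by the rule as a glucocorticoid-responsive gene.

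By the study's methods the kidney cortex came from the same mice, so its samples are not independent of those of the medulla. In the cortex 9 of 12776 probes passed (0.0704%), 0.0470% higher and 0.0235% lower. The 21 medulla probes had differences of the same sign there, and 3 of them were called. *Per2* differed there by 2.03, *Arntl* by -2.59, *Dbp* by 1.78, *Coq10b* by 0.96, *Tnnc1* by 1.01, *Gldc* by -0.57 and *Ndrg1* by -0.58. *Nfil3*, at -0.01 in the medulla, differed by -1.14 in the cortex (adjusted p = 0.0529). The tissues were normalized separately and the difference between them was not tested.

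**Figure D4:**
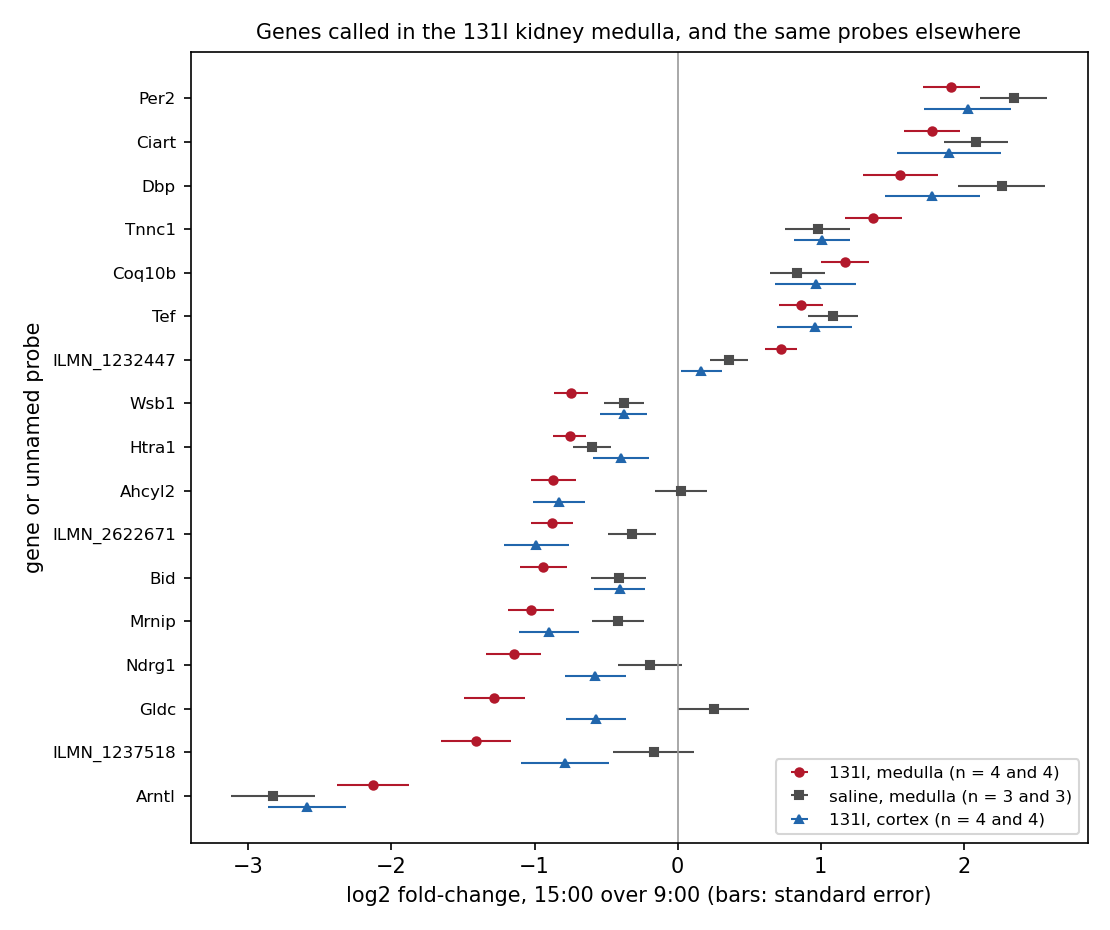
Log2 fold-change of 15:00 over 9:00 (x axis, bars are standard errors) for the 17 genes or unnamed probes called in the 131I kidney medulla (red circles), with the same probes in the saline medulla (grey squares) and the 131I cortex (blue triangles). *Per2*, *Ciart*, *Dbp*, *Tef* and *Arntl* lie on the same side of 0 in all 3 comparisons, while the saline medulla values of *Gldc* (0.25) and *Ahcyl2* (0.03) lie near or above 0.

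Some of the genes that passed the looser rule alone are named here, chosen after their values were seen, and others are not named. *Nudt19*, a peroxisomal coenzyme A hydrolase of the kidney, was 12.16 to 12.52 at 9:00 and 12.82 to 12.96 at 15:00. Its adjusted p of 0.00852 met the main rule but its fold-change, 1.48, did not. *Slc38a2*, an amino acid transporter induced by hypertonicity, read 10.59, 10.41, 10.06 and 10.47 at 9:00 and 10.82, 11.22, 11.17 and 11.27 at 15:00 (0.74 ± 0.14, adjusted p = 0.0152). *Angptl7* (0.99), the multivitamin transporter *Slc5a6* (0.77), *Fubp1* (0.77), *Agps* of ether lipid synthesis (0.56) and *Ndufaf4* of complex I assembly (0.42) were also higher.

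Lower by the looser rule were *Prodh*, which starts proline breakdown, at -1.13 ± 0.24 (adjusted p = 0.0379) and *Ddc*, which forms dopamine in the tubule, at -0.89 ± 0.18 (adjusted p = 0.0241). *Prodh* was 10.01 to 10.21 at 9:00 and 8.66 to 9.55 at 15:00, and its 15:00 samples were the more spread. The vasopressin V1a receptor gene *Avpr1a* was 8.48 to 9.00 at 9:00 and 7.53 to 8.14 at 15:00 (-0.89 ± 0.17, adjusted p = 0.0168). *Faah*, which breaks down fatty acid amides, differed by -0.74, *Pfkfb4* of glycolytic control by -0.54 and *Retreg1*, a receptor for turnover of the endoplasmic reticulum, by -0.54. With saline *Ddc* passed the main rule (-1.18), as *Per1* and *Usp2* did, and the other genes named by the looser rule did not. Among the lower genes *Avpr1a* differed by -0.86 with saline, *Faah* by -0.71, *Prodh* by -0.60, *Pfkfb4* by -0.11 and *Retreg1* by 8.75e-06. Among the higher ones *Angptl7* differed by 0.95, *Fubp1* by 0.43, *Nudt19* by 0.31, *Slc5a6* by 0.24, *Agps* by 0.18 and *Ndufaf4* by 0.13. *Slc38a2* had the other sign with saline, -0.28, and so had some of the higher genes not named.

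Gene lists of kidney function and stress had few or no called members. Of 10 measured osmolyte and hypertonicity genes 0 passed the main rule and 1, *Slc38a2*, the looser one. *Slc5a3*, the inositol transporter, was 6.75 to 7.28 at 9:00 and 7.44 to 8.45 at 15:00 without overlap (0.91 ± 0.22, adjusted p = 0.0799), and *Slc6a6*, the taurine transporter, differed by 0.34 (adjusted p = 0.0924). The list's median was 0.27, beside 0.0107 over all probes. None of 16 heat shock genes passed either rule, although 15 differences were positive and the median was 0.38. Among them *Chordc1* differed by 0.51, *Bag3* by 0.37 and *Dnaja1* by 0.63 (adjusted p 0.156, 0.228 and 0.348). With saline the median of the heat shock genes was -0.01, and that of the osmolyte genes -0.24.

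Of 10 measured aquaporins and urea transporters 0 passed, with *Aqp4* at 0.74, *Avpr2* at 0.57 and *Aqp7* at 0.56 (adjusted p 0.382, 0.456 and 0.315). Of 19 salt transport regulators 0 passed, 10 differences were positive and the median was 0.07. *Sgk1*, the kinase that keeps the epithelial sodium channel at the membrane, differed by 1.02 ± 0.29 (adjusted p = 0.151) with overlapping groups, *Hsd11b2* by -0.49 and the channel subunit *Scnn1a* by -0.46. Of 12 glucocorticoid-responsive genes 0 passed the main rule and 1, *Per1*, the looser one.

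The p53 target genes, which respond to radiation damage, had 17 measured members with 0 called by either rule. Their differences were negative in 12 of 17, with a median of -0.21 and, with saline, 0.05. *Ccng1* read 11.63, 11.30, 11.40 and 11.33 at 9:00 and 11.09, 10.83, 10.83 and 10.94 at 15:00. The groups did not overlap, and the difference was -0.49 ± 0.11 (adjusted p = 0.0698). *Gadd45a* differed by -0.52 (adjusted p = 0.106) and *Cdkn1a*, above background on 1 of 4 arrays at 15:00, by -0.64 (adjusted p = 0.277). Of 11 measured hypoxia-responsive genes 1, *Ndrg1*, fell, 9 differences were negative and the median was -0.18; *Hk2* differed by -0.98 (adjusted p = 0.448) and *Vegfa* by -0.24 (adjusted p = 0.483).

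No member passed either rule among 14 PPARA targets, 14 immediate early genes, 11 cell cycle genes, 19 genes of sterol and fatty acid synthesis, 6 of gluconeogenesis, 11 of the interferon response, 13 of folding and secretion in the endoplasmic reticulum, 20 of mitochondrial respiration, 9 thyroid hormone genes and 2 cold-inducible RNA-binding proteins. Among these *Angptl4*, an inhibitor of lipoprotein lipase, had the largest rise in value, 1.44 ± 0.40 (adjusted p = 0.143), and *Cyp4a14*, a fatty acid hydroxylase, differed by -0.67 (adjusted p = 0.268), with *Acaa1b* at -0.48. *Junb* differed by -0.56 (adjusted p = 0.147), *Herpud1* by 0.48 (adjusted p = 0.0864) and *Hr*, a thyroid hormone target, by -0.64 (adjusted p = 0.133). The medians of these lists lay between -0.31 for thyroid hormone genes and 0.12 for PPARA targets.

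None of the cell type markers measured passed either rule. In bulk tissue fewer cells of a type and less RNA per cell cannot be told apart. The 18 proximal tubule markers measured had a median of -0.29, 12 were negative, and their mean log2 intensity was 10.83 to 11.16 in 9:00 samples and 10.62 to 10.998 in 15:00 samples, so that the groups overlapped. *Slc13a3*, a dicarboxylate transporter of that segment, differed by -1.17 (adjusted p = 0.0918) and *Slc22a12*, a urate transporter, by -0.72 (adjusted p = 0.228). In saline samples of 9:00 the proximal tubule mean was 10.06 to 10.96, and the lowest was replicate 2, which also read lowest for *Gldc*. The part of these levels in the falls of *Gldc* and other genes was not tested.

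Collecting duct principal cell markers (median 0.08, 6 of 11 positive) and thick ascending limb markers (median -0.02, 5 of 11 positive) were balanced, with *Slc12a1* at 0.58 and *Cldn10* at -0.74. Thin limb markers had a median of 0.17, with *Aqp1* at 0.17, and distal convoluted tubule markers -0.35, with *Slc12a3* at -0.35. The medians were 0.09 for papilla and urothelium, 0.12 for endothelium, -0.19 for interstitium, -0.24 for intercalated cells, -0.32 for the 4 glomerular markers and -0.37 for the 3 erythroid ones. The largest negative medians were those of 9 immune cell markers (-0.47, with *Lyz2* at -0.81) and 5 fat markers (-0.94). The mean fat level was 5.33 to 7.16 at 9:00 and 4.51 to 6.05 at 15:00, and *Adipoq* varied from 7.49 to 9.85 and from 4.47 to 8.40, which overlapped (adjusted p = 0.398).

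**Figure D5:**
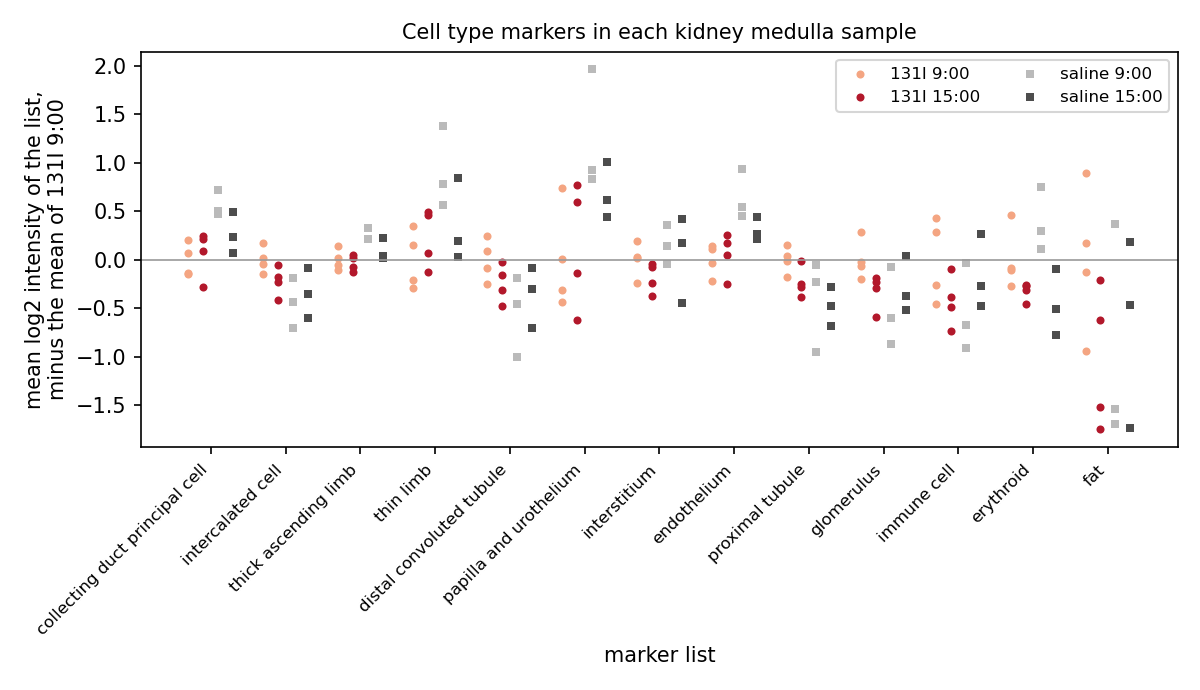
Mean log2 intensity of each cell type marker list in each kidney medulla sample, minus the mean of the 131I 9:00 group (y axis), for 131I (circles) and saline (squares) at 9:00 and 15:00. The 131I samples of both hours overlap for the proximal tubule list (10.83 to 11.16 and 10.62 to 10.998 before subtraction), and the fat list is the most spread.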

How the data were processed

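The non-normalized intensities were deposited by the authors as bead averages of each probe, taken from the Illumina and BASE software with no normalization between arrays. The authors deposited a detection p-value beside each intensity, which sets it against that array's negative controls. Their second file, of intensities quantile normalized over all arrays, served as an alternative. For the medulla, nec (offset 16) used the detection p values to subtract background, after which the arrays of that tissue were quantile normalized and log2 transformed (R 4.3.3, limma 3.58.1). The repeat array was averaged with its replicate. All 6 medulla groups entered one limma model (eBayes, intensity trend), and p values were adjusted over 13247 probes, those whose detection p was under 0.01 on 3 or more arrays. The cortex was fitted likewise. All adjusted p values in the text are limma's.

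In the platform annotation 12467 of the tested probes had a single gene symbol and 780 had none. A gene with more than one probe is represented by its probe of smallest p. The text names all measured clock genes, up to 3 members with the smallest p of other lists, the called genes, and some others at an adjusted p under 0.05. The comparison, gene lists and rules were chosen with earlier results of these data known. Replicate numbers were not used to pair the samples in the main fit. Deviations from the group mean correlated at -0.0059 to 0.222 for same-numbered replicates and at -0.246 to 0.172 for differently numbered ones. Promoters came from RefSeq (GRCm38.p6). Plots were made in matplotlib 3.10.9 under python 3.11.15. The scripts were tested on simulated data. The number of arrays limits the precision. Alternatives covered the background correction, scaling, the authors' normalized values, the probe filter, the groups fitted, the repeat array, the trend, a replicate block and the omission of each replicate.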

Additional observations from a re-analysis of the deposited data

Results flagged for a closer look

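Among 72 genes and probes named in the text, 144 groups of 4 replicates were checked for a sample far from the other 3 by the Dixon criterion, and 7 were found. Chance alone flags about 1 in 20 groups. *Usp2* in 15:00 replicate 3 was 10.76 on the log2 scale, above the others at 10.60 to 10.62. *Errfi1* was 12.37 in 9:00 replicate 1, above 12.09 to 12.12, and 11.49 in 15:00 replicate 3, below 11.88 to 11.95. *Cdkn1a* was 5.52 in 15:00 replicate 3, above 5.24 to 5.28. *Herpud1* was 12.31 in 9:00 replicate 1, above 11.73 to 11.80. *Ndrg1* was 11.94 in 15:00 replicate 2, below 12.26 to 12.31, and *Agps* was 10.23 in 15:00 replicate 1, above 9.83 to 9.89.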

How the results depend on the processing

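Of the main setting's 21 calls 10 were higher and 11 lower. With median scaling 10 probes passed (9 shared with the main setting), 9 higher and 1 lower, and the median of all probes was then 0.0751 on the log2 scale. Without an intensity trend 10 passed, 7 higher and 3 lower. In a fit of the 2 compared groups 27 passed, with 17 lower, and 75 had an adjusted p under 0.05. With each replicate left out, the calls numbered 8 to 17, the lower ones 1 to 8 and those at an adjusted p under 0.05 29 to 37. The other settings gave 16 to 20 calls (deposited normalized values 18, with 18 shared). With the replicate block 18 passed, 10 higher and 8 lower, of which 16 were shared. No probe's difference between 131I and saline passed in any setting in which it was fitted. Of 1285 values of single genes under the alternatives 1153 kept their direction and side of the threshold, 113 in 14 genes no longer passed, 12 in 10 genes newly passed, and 7 changed sign. The sign changes were in *Nfil3* (0.077 with median scaling, 0.0045 without the repeat array, -0.097 to 0.073 with a replicate left out) and *Rora* (-0.0165 to 0.118 with a replicate left out), which lie near 0. Saline replicates were not left out. The cause of these changes was not tested. Dim transcripts (*Ciart*, *Wee1*, *Per3*, *Tnnc1* at 9:00 and *Arntl* at 15:00) are limited by background signal.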
